A study of Drosophila melanogaster with 18 samples.

Results

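Tudor (Tud) is a scaffold protein of the germ plasm, the cytoplasm at the posterior pole of the Drosophila egg that specifies the germline. The 10 genes described here act in the same process: osk, nos, pgc, gcl, csul, vls, stau, orb, bru1 and exu. They were picked by gene symbol from a fixed set of names, and all 10 were found among the 17288 gene identifiers of the expression table. Transcript levels were measured by RNA-seq in 18 libraries, 3 in each of 6 groups, as FPKM, which counts sequenced fragments relative to transcript length and library depth. The groups were tud ovaries, control ovaries, tud female brains, control female brains, tud male brains and control male brains. Each replicate was a pool of tissue dissected by hand from young flies.

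The mutant flies were y, w; tud1, bw, sp/Df(2R)PurP133, that is, tud1 over a deficiency of the second chromosome. The control flies were y, w; tud1, bw, sp/CyO, P[w+, hs-hid], so that they carried 1 copy of the same tud1 chromosome over a balancer chromosome, which bears w+ and hid under a heat shock promoter. The labels call these heterozygotes wild-type. Both genotypes shared y, w, bw, sp and tud1, and differed in the other second chromosome as well as in the dose of intact tud. For every gene, the loss of Tud and the second chromosome that came with it therefore cannot be told apart. Of the 10 genes, 7 lie on the second chromosome itself.

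Germ plasm is assembled in steps. In the oocyte, osk RNA is carried to the posterior pole in a translationally silent form and is translated there, and Oskar protein recruits Vasa and Tud. Tud binds proteins with dimethylated arginines, marks that are placed by the Csul methyltransferase together with Vls. The finished germ plasm holds nos, pgc and gcl RNA, which act in the abdomen and in the pole cells, the first germ cells of the embryo. In the nervous system, stau, orb, bru1 and nos belong to families of RNA-binding proteins that control localisation, splicing or translation of neuronal RNAs.

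Judged by ovarian germline and neuron markers, the ovary and the brain libraries held the tissue their labels name. The brains also held markers of eye photoreceptors and fat body, described below. The summed level of 7 ovarian germline markers was 516 to 576 FPKM in tud ovaries and 521 to 554 FPKM in control ovaries, and it did not exceed 6.14 FPKM in any brain. The summed level of 6 neuron markers was 523 to 1025 FPKM in tud brains and 279 to 582 FPKM in control brains, and at most 1.47 FPKM in any ovary. The tud transcript, which checks the genotype only in part since tud1 is present in both genotypes, stood at 9.10, 11.6 and 12.4 FPKM in tud ovaries, against 67.2, 61.0 and 63.2 FPKM in control ovaries. It was 12.9 to 17.9 FPKM in 5 tud brains, against 20.2 to 36.2 FPKM in the 6 control brains. With every brain library included, the change of tud did not pass (log2 fold change -0.54, SE 0.22, adjusted p = 0.094, limma on log2(FPKM + 1)). The remaining library, tud female brain replicate 2, stood apart with 32.3 FPKM of tud and the highest sum of neuron markers. The brain results of pgc, stau and orb are therefore also given without it.

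In control flies, 9 of the 10 genes were higher in the ovary than in the female brain, and stau was the exception. Of the 10443 genes tested between these tissues 80.0% passed an adjusted p of 0.05 (limma on log2(FPKM + 1)), so that a difference by itself was the common case. Among the members, the median log2 difference, ovary over female brain, was 4.08, against -0.21 over all genes tested. The 3 genes with the largest differences were osk, nos and exu.

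In the ovary, osk was among the most abundant members. Its level was 508, 563 and 644 FPKM in tud ovaries, against 606, 588 and 557 FPKM in control ovaries. The groups overlapped (log2 fold change -0.04, 95% interval -0.28 to 0.21, limma adjusted p = 0.89). In the brain, osk stayed at or below 0.74 FPKM in all 12 libraries, with 0.54, 0.11 and 0.08 FPKM in tud female brains, against 0.04, 0.71 and 0.58 FPKM in control female brains. In male brains it was at 0.25, 0.04 and 0.74 FPKM in tud flies, against 0.24, 0.15 and 0.08 FPKM in controls. These values correspond to about 1 to 27 fragments per library, judged from the steps between low FPKM values, and spanned 0.0062% to 0.13% of the mean level in control ovaries. A genotype difference was not detectable at this depth (log2 fold change -0.01, 95% interval -0.37 to 0.35, adjusted p = 0.98 in a fit without the filter on low values).

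**Figure D1:**
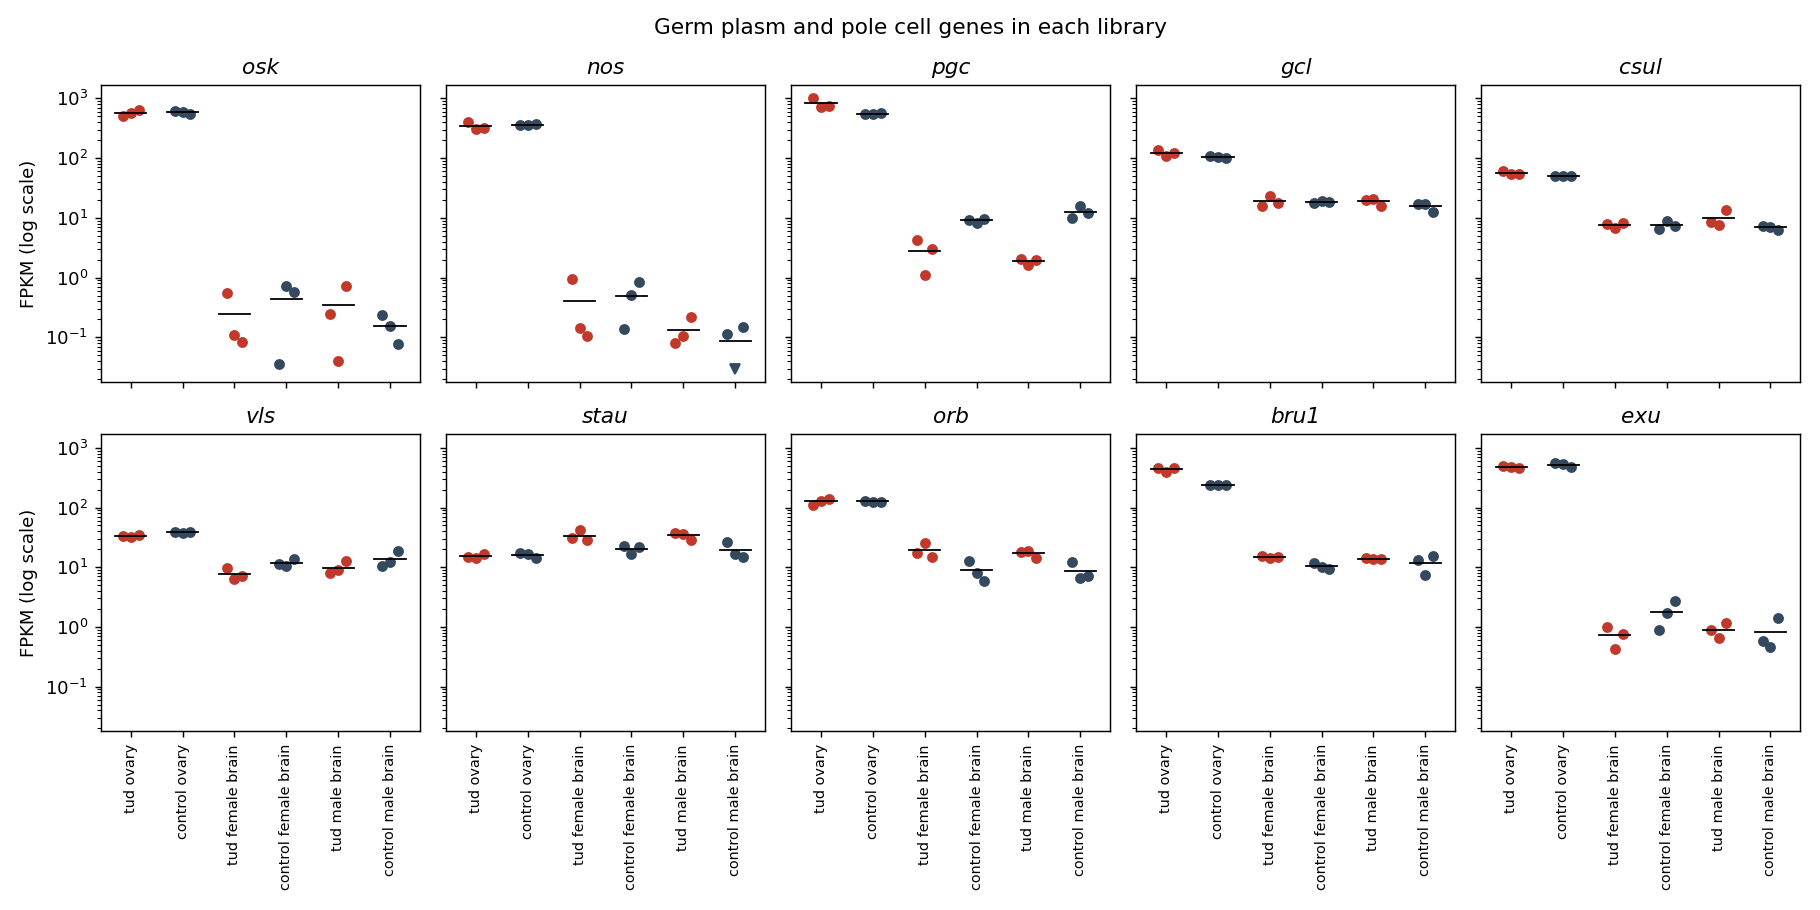
FPKM of each of the 10 genes in every library, on a log scale, with 1 point per library and a bar at the mean of the 3 libraries of a group. Red points are tud and dark points control libraries, and the triangle marks nos listed at 0 in control male brain replicate 2. The ovary means of osk, nos and exu are the furthest above those of the female brain in controls (297-fold or more), whereas the mean level of stau is higher in the brain, and pgc separates by genotype in both sexes of the brain.

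The gene stau encodes a double-stranded RNA-binding protein that localises osk RNA to the posterior and bcd RNA to the anterior of the oocyte. It was the only member without a higher level in the ovary, with 17.1, 16.5 and 14.4 FPKM in control ovaries, against 22.3, 16.5 and 21.9 FPKM in control female brains (log2 difference -0.31, SE 0.16, adjusted p = 0.092). That difference passed when either of 2 libraries was left out (adjusted p = 0.028 without control female brain replicate 2, and 0.035 without tud female brain replicate 2). In tud ovaries stau stood at 14.6, 14.1 and 16.9 FPKM, overlapping the controls (log2 fold change -0.07, SE 0.09, adjusted p = 0.75).

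In the brain, stau was higher in tud flies of both sexes. Its level was 30.5, 41.7 and 28.3 FPKM in tud female brains, against 22.3, 16.5 and 21.9 FPKM in control female brains. In males it was 38.1, 36.3 and 28.3 FPKM in tud brains, against 26.6, 16.4 and 14.6 FPKM in control brains. Every tud brain lay above every control brain of either sex. Over both sexes stau rose by 0.76 on the log2 scale (SE 0.17, 95% interval 0.39 to 1.14, adjusted p = 0.018), a 1.72-fold ratio of mean FPKM. An exact permutation test of genotype within sex gave p = 0.005, the smallest p that its 400 arrangements allow.

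The gene exu encodes a protein needed for localisation of bcd RNA. It was at 487, 470 and 466 FPKM in tud ovaries, against 563, 528 and 479 FPKM in control ovaries. The ranges overlapped and the change did not pass (log2 fold change -0.14, SE 0.08, adjusted p = 0.44). In brains exu was near the filter of a mean of 1 FPKM, with 1.02, 0.43 and 0.76 FPKM in tud females, against 0.89, 1.68 and 2.70 FPKM in control females. In male brains it was at 0.90, 0.66 and 1.15 FPKM in tud flies, against 0.59, 0.46 and 1.44 FPKM in controls. The values of both genotypes overlapped (log2 fold change -0.27, 95% interval -0.75 to 0.21, adjusted p = 0.36) and rested on about 6 to 74 fragments per library. All brain values of exu were below 0.52% of the mean in control ovaries.

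The gene orb encodes a cytoplasmic polyadenylation element-binding protein that promotes translation of osk in the oocyte. Its ovary levels were 108, 130.3 and 140.2 FPKM in tud flies, against 129.6, 125 and 126 FPKM in controls, with a log2 fold change of -0.01 (SE 0.10, adjusted p = 0.96). In the brain its level was about 2-fold higher in tud flies. It stood at 17.6, 25.2 and 14.7 FPKM in tud female brains, against 12.5, 8.10 and 5.87 FPKM in control female brains. In males it stood at 17.9, 18.9 and 14.4 FPKM in tud brains, against 12.2, 6.63 and 7.05 FPKM in control brains. The lowest tud brain was above the highest control brain. Over both sexes orb rose by 1.00 on the log2 scale (SE 0.21, 95% interval 0.54 to 1.46, adjusted p = 0.016; exact permutation p = 0.005, the smallest possible). The change in the ovary minus that in the female brain was -1.07 for orb (SE 0.34, adjusted p = 0.14) and -0.76 for stau (SE 0.23, adjusted p = 0.13), so a difference between tissues was not shown, although that of orb passed without control female brain replicate 1 (adjusted p = 0.034).

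The gene bru1, also known as aret, encodes Bruno, which binds osk RNA and represses its translation before it reaches the posterior pole. It was the only member that passed in the ovary. Its level was 454, 386 and 465 FPKM in tud ovaries, against 240.3, 241 and 236 FPKM in control ovaries. The lowest tud ovary was 1.60 times as high as the highest control ovary, and the 3 controls lay within 5.54 FPKM of each other. bru1 rose by 0.86 on the log2 scale (SE 0.09, 95% interval 0.65 to 1.06, adjusted p = 0.0025), a 1.82-fold ratio of means. It passed without any 1 of the 6 libraries (log2 fold change 0.81 to 0.94, adjusted p at most 0.020). Among the 8254 genes tested in the ovary 4.09% passed, and 1 of the 10 members did. Separation of the groups was common here: all 3 tud ovaries lay on the same side of the controls for 24.7% of the genes tested and for 4 of the 10 members, and the smallest exact permutation p for 3 libraries against 3 is 0.10.

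A pair of annotated genes overlap bru1, atilla on the opposite strand and CG31759 on the same strand, and both were far lower than bru1 in the ovary. CG31759 was at 21.8 to 24.6 FPKM in tud ovaries and 22.7 to 24.1 FPKM in control ovaries, and atilla at 15.3 to 28.7 FPKM in tud ovaries and 16.4 to 22.9 FPKM in control ovaries. In the brain, bru1 was at 15.6, 14.4 and 14.7 FPKM in tud females, against 11.8, 10.2 and 9.34 FPKM in control females. In male brains it was at 14.1, 13.9 and 13.7 FPKM in tud flies, against 13.1, 7.28 and 15.3 FPKM in controls, where the groups overlapped. The change over both sexes did not pass (log2 fold change 0.37, 95% interval 0.03 to 0.72, adjusted p = 0.095). The change in the ovary minus that in the female brain was 0.38 (SE 0.15, adjusted p = 0.20).

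The gene nos encodes a translational repressor that acts with Pumilio in the embryonic abdomen and in germ cells. Its level was 399.6, 312 and 319 FPKM in tud ovaries, against 363, 364 and 369 FPKM in control ovaries. The tud values lay on both sides of the controls (log2 fold change -0.10, SE 0.10, adjusted p = 0.68). In tud female brains nos was at 0.95, 0.14 and 0.11 FPKM, against 0.14, 0.50 and 0.84 FPKM in control female brains. In tud male brains it was at 0.08, 0.10 and 0.22 FPKM, against 0.11, 0 and 0.15 FPKM in control male brains. These were about 0 to 27 fragments per library, and no difference was detectable at this depth (log2 fold change -0.03, 95% interval -0.37 to 0.32, adjusted p = 0.92 without the filter). CG11779, which overlaps nos on the opposite strand, was at 11.3 to 14.8 FPKM in all 12 brains.

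The genes csul and vls encode the methyltransferase of the methylosome and its partner, the fly counterparts of PRMT5 and MEP50. In the ovary csul was at 60.6, 53.6 and 54.6 FPKM in tud flies, against 50.6, 50.5 and 50.5 FPKM in controls. vls was at 33.8, 32.1 and 34.3 FPKM in tud ovaries, against 38.3, 38.0 and 38.8 FPKM in control ovaries. The groups did not overlap for either gene and the changes were small, 0.15 on the log2 scale for csul (SE 0.06, adjusted p = 0.26) and -0.20 for vls (SE 0.05, adjusted p = 0.10).

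In the brain csul was at 7.85, 6.69 and 8.13 FPKM in tud females, against 6.45, 8.996 and 7.23 FPKM in control females. In males it was at 8.45, 7.69 and 13.4 FPKM in tud brains, against 7.39, 7.16 and 6.30 FPKM in control brains. Its change over both sexes was 0.21 on the log2 scale (95% interval -0.11 to 0.53, adjusted p = 0.29). vls was at 9.82, 6.43 and 7.05 FPKM in tud female brains, against 11.4, 10.3 and 13.7 FPKM in control female brains. It was at 7.86, 9.03 and 12.8 FPKM in tud male brains, against 10.3, 12.1 and 19.0 FPKM in control male brains. The female groups were separate and the male groups overlapped. The change of vls, -0.49 on the log2 scale (SE 0.18, adjusted p = 0.064), did not pass; it passed without control male brain replicate 1, tud male brain replicate 3 or tud female brain replicate 1, with adjusted p between 0.028 and 0.049. The gene lok, which overlaps vls on the opposite strand, was at 1.66 to 3.91 FPKM in tud brains and 3.27 to 5.05 FPKM in control brains.

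The gene gcl, needed for pole cells to form, changed little in either tissue. It was at 134.8, 107 and 119.7 FPKM in tud ovaries, against 109.6, 105 and 100.2 FPKM in control ovaries (log2 fold change 0.19, SE 0.09, adjusted p = 0.34). In brains it was at 15.9 to 23.2 FPKM in tud flies, against 12.6 to 19.4 FPKM in controls (log2 fold change 0.14, 95% interval -0.15 to 0.43, adjusted p = 0.44). The values overlapped in both tissues.

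The gene pgc encodes a small protein that holds transcription off in pole cells. In the brain it was the member with the largest change. Its level was 4.31, 1.09 and 3.05 FPKM in tud female brains, against 9.28, 8.27 and 9.56 FPKM in control female brains. In males it was 2.06, 1.62 and 1.94 FPKM in tud brains, against 10.1, 15.6 and 12.2 FPKM in control brains. The highest tud brain had 52.1% of the level of the lowest control brain. Over both sexes pgc fell by 1.86 on the log2 scale (SE 0.21, 95% interval -2.33 to -1.40, adjusted p = 0.0010; exact permutation p = 0.005, the smallest possible), and the mean FPKM was 4.62-fold lower in tud brains. Of the 10689 genes tested in the brain, 26 had a more negative change.

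The fall of pgc was called when any 1 of the 12 brain libraries was left out (log2 fold change -2.01 to -1.67). It was -2.23 in males (SE 0.30, adjusted p = 0.0056) and -1.49 in females (SE 0.30, adjusted p = 0.073). Leaving out replicate 2 of the control male brains brought the female change past the threshold (adjusted p = 0.040), and it also passed when tud female brain replicate 1 was left out (adjusted p = 0.046). The female minus the male change was 0.74 (SE 0.42, adjusted p = 0.9997), so a difference between the sexes was not shown.

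In the ovary pgc stood at 998, 716 and 755 FPKM in tud flies, against 553, 548 and 571 FPKM in controls. All 3 tud ovaries were above the controls, and the change of 0.55 on the log2 scale (SE 0.13, 95% interval 0.23 to 0.86) did not pass (adjusted p = 0.078). It passed without tud ovary replicate 1, the highest library (0.40, adjusted p = 0.046). pgc thus had opposite signs in the tissues, and the change in the ovary minus that in the female brain was 2.04 (SE 0.38, 95% interval 1.19 to 2.89, adjusted p = 0.038). Among 10443 genes, 1.05% passed this test, and pgc was the only one of the 10 members. The size of the difference was 1.66 to 2.33 when 1 library was left out, but the call was lost without any 1 of 9 of the 12 libraries (adjusted p = 0.053 to 0.11): each ovary, control female brain replicates 2 and 3, and tud female brain replicate 3.

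pgc lies on 2R between positions 22330200 and 22332813 of dm6, on the plus strand, and T3dh lies across part of it on the minus strand (22329726 to 22332072). The libraries were stranded, but whether the counting used the strand is not stated, so reads of the 2 genes may not be fully separated. T3dh also fell in the brain. It was at 4.95, 2.13 and 5.01 FPKM in tud female brains, against 8.57, 7.90 and 8.22 FPKM in control female brains. It was at 3.12, 3.28 and 4.12 FPKM in tud male brains, against 8.61, 10.3 and 10.2 FPKM in control male brains (log2 fold change -1.09, SE 0.17, adjusted p = 0.0056). The tud and control ranges were separate for T3dh as they were for pgc. Per 100 FPKM of T3dh there were 47.2 to 87.1 FPKM of pgc in tud brains and 105 to 151 FPKM in control brains, so that pgc was lower also relative to T3dh. In the ovary T3dh was at 2.05 to 3.46 FPKM in tud flies and 2.09 to 2.44 FPKM in controls, far below pgc.

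**Figure D2:**
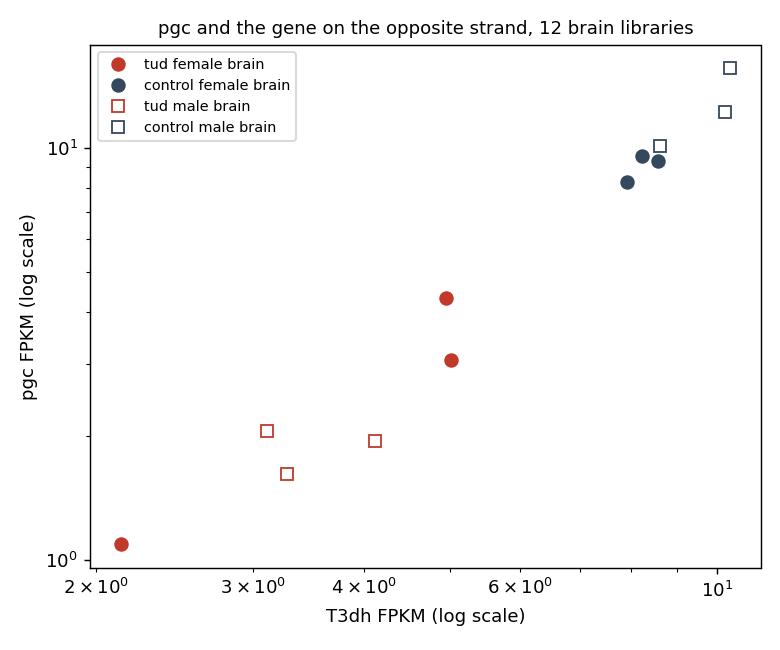
FPKM of pgc against FPKM of T3dh, the gene that overlaps it on the opposite strand, in the 12 brain libraries, both on log scales, with 1 point per library. Tud brains (red) have at most 4.31 FPKM of pgc and 5.01 FPKM of T3dh, and control brains (dark) at least 8.27 FPKM of pgc and 7.90 FPKM of T3dh.

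pgc is 1.14 Mb from tud. Of 26 other genes tested within 100 kb of pgc, 6 rose and 4 fell in tud brains, T3dh among those that fell, with a median log2 fold change of 0.10. The called changes near pgc ranged from -1.09 (T3dh) to 2.62 on the log2 scale. Over all genes tested in the brain, 14.2% rose and 10.8% fell. exu is 0.51 Mb, stau 3.06 Mb, csul 4.92 Mb and gcl 12.45 Mb from tud on the same arm. vls and bru1 are on 2L, and osk, nos and orb on 3R.

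Across the brain 24.9% of the 10689 genes tested passed, and 3 of the 8 members above the filter did, with stau and orb higher and pgc lower in tud brains. The median log2 fold change of the 8 members was 0.18, against 0.07 over all genes tested. The same 3 members were separate between genotypes in each sex in the same direction, which held for 19.0% of all genes tested. Without tud female brain replicate 2, the log2 fold change was -1.67 for pgc (adjusted p = 0.00022), 0.68 for stau (adjusted p = 0.037) and 0.90 for orb (adjusted p = 0.031). Without tud male brain replicate 1, the calls of stau (adjusted p = 0.057) and orb (adjusted p = 0.0505) were lost and 382 genes passed in all, against 2666 with every library.

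**Figure D3:**
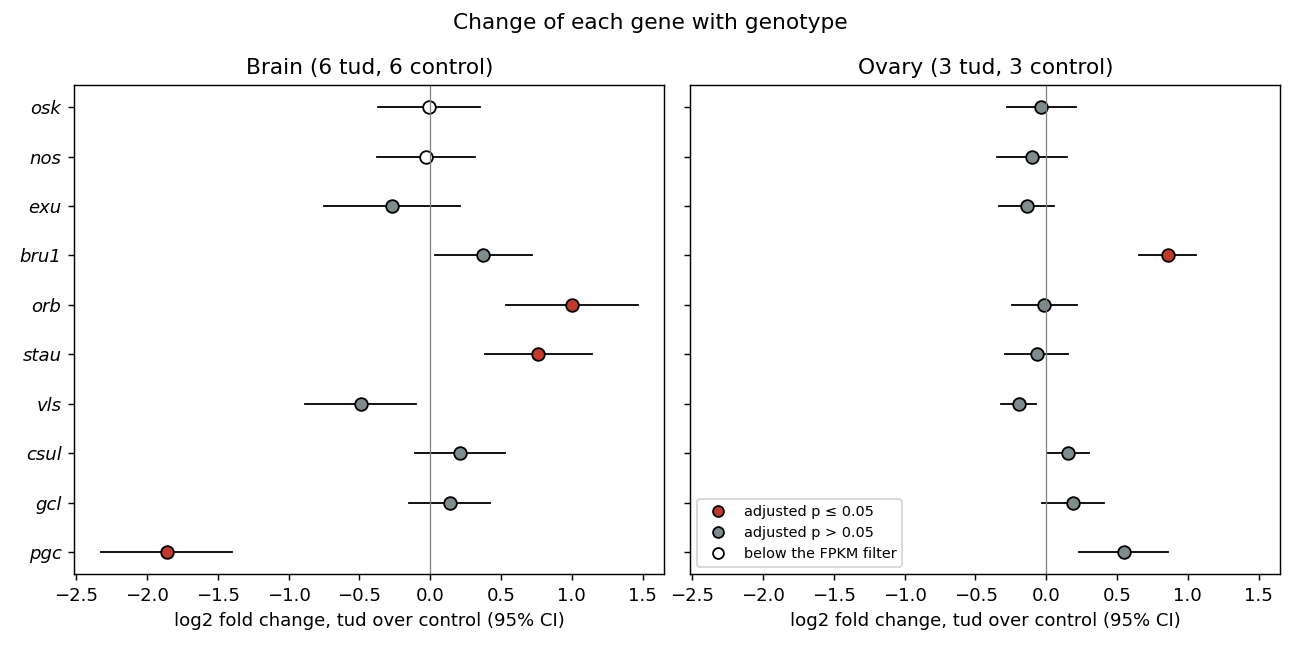
Log2 fold change (tud over control, on log2(FPKM + 1)) of each of the 10 genes in brain and ovary, with 95% confidence intervals from limma. Red points passed an adjusted p of 0.05, grey points did not, and open points mark osk and nos in the brain, which were under the FPKM filter. In the brain stau and orb lie to the right and pgc to the left of 0, and in the ovary bru1 is the 1 red point, at 0.86.

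Within one sex few genes passed. In female brains 0.337% of the genes tested and none of the 8 members were called by limma, with 4 members at an unadjusted p under 0.05, as were 16.9% of all genes tested. In male brains 1.23% of the genes and 1 member, pgc, were called. The changes of stau were 0.69 in females and 0.84 in males, and those of orb 1.06 in females and 0.94 in males, on the log2 scale. stau in males was called without control male brain replicate 1 (adjusted p = 0.0095) or tud female brain replicate 2 (adjusted p = 0.049), and orb without the first of these (adjusted p = 0.016). For the female minus male change 0.0187% of the genes and no member passed limma's test, and no member was under an unadjusted p of 0.05. Between control female and control male brains 0.281% of the genes and no member passed, again with no member under an unadjusted p of 0.05.

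The levels of stau and orb followed those of neuron markers from library to library. The summed FPKM of elav, nSyb, Syt1, brp, Appl and futsch was 695, 1025 and 523 in tud female brains, against 501, 331 and 279 in control female brains. It was 793, 769.8 and 669 in tud male brains, against 582, 335 and 368 in control male brains. Tud female brain replicate 2 was highest for the markers, stau and orb alike. Over the 12 brain libraries the correlation with the marker sum on the log2 scale was 0.98 for orb and 0.90 for stau, and after removal of the mean of each group it was 0.98 for orb and 0.76 for stau. All 6 neuron markers had positive changes and 2 of them passed, with a median log2 fold change of 0.81. Per 100 FPKM of these markers orb was at 2.15 to 2.81 FPKM in tud brains and 1.91 to 2.51 FPKM in control brains, and stau at 4.07 to 5.41 FPKM in tud brains and 3.97 to 7.86 FPKM in control brains. On this relative scale the genotypes overlapped for stau in both sexes and for orb in females. In males orb was at 2.25, 2.46 and 2.15 in tud brains, against 2.09, 1.98 and 1.91 in control brains, without overlap. In bulk tissue more cells of a type and more RNA per cell cannot be told apart.

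**Figure D4:**
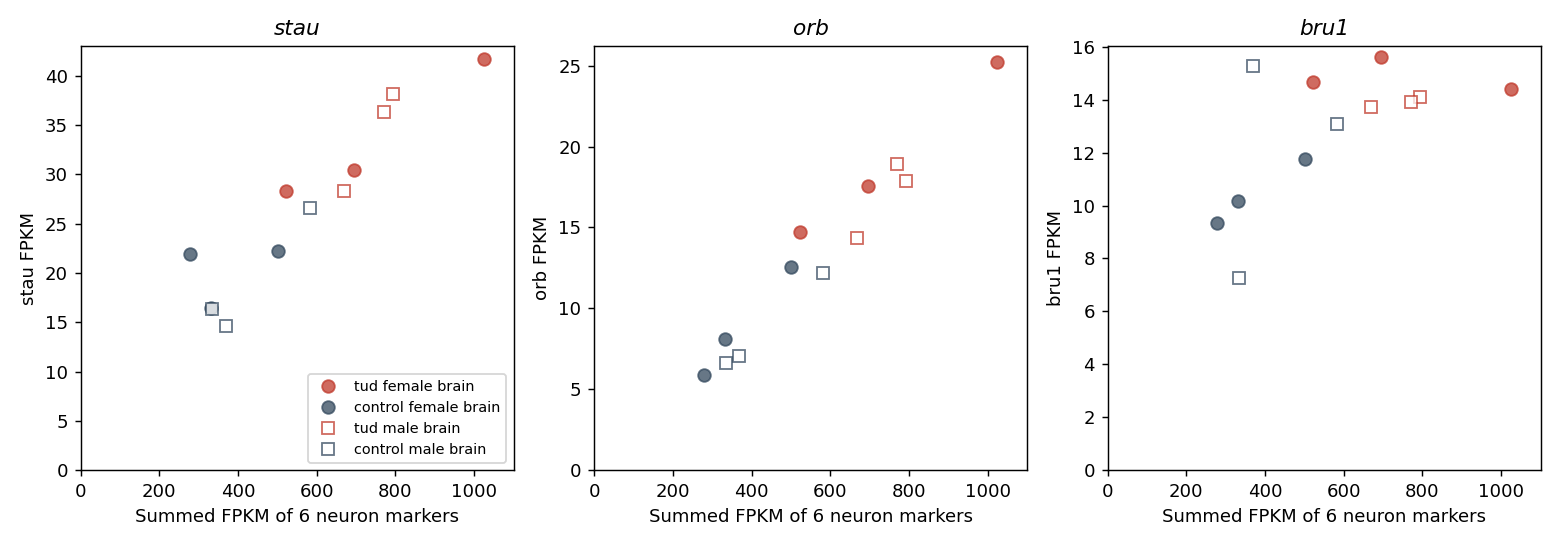
FPKM of stau, orb and bru1 (vertical axes, from 0) against the summed FPKM of 6 neuron markers in the 12 brain libraries. Filled circles are female and open squares male brains, red tud and dark control. stau and orb are highest in the library with 1025 FPKM of markers and low where the markers are at 279 to 368 FPKM, while bru1 spans 13.7 to 15.6 FPKM in tud brains across marker sums of 523 to 1025 FPKM.

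Markers of eye photoreceptors moved with genotype as well. All 6 passed and rose in tud brains, with a median log2 fold change of 1.31. Their sum was 1803 to 6184 FPKM in tud brains, against 990.4 to 2051 FPKM in control brains. Tud female brain replicate 2, the library with the highest stau and orb, had the lowest photoreceptor sum of the tud brains. The 7 ovarian germline markers summed to 3.57 to 6.14 FPKM in tud brains and 0.69 to 2.96 FPKM in control brains. Much of this was grk, the 1 of them above the filter, which rose by 1.10 on the log2 scale. It was at 2.87 to 4.66 FPKM in tud brains and 0.47 to 2.36 FPKM in control brains. Each of the other germline markers overlapped between genotypes and was at most 0.54 FPKM in any brain. Of 7 glial markers 1 rose and 2 fell. Fat body markers stood at 502 to 5535 FPKM in tud brains and 178 to 3851 FPKM in control brains, with none of 5 called by limma and 1 under an unadjusted p of 0.05. Of the remaining lists, none of the 2 follicle cell, 5 testis and 3 muscle markers that were tested passed in the brain, with 1 under an unadjusted p of 0.05 in each list. The part of cell composition in the changes of stau, orb and pgc was not tested.

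Long genes tended to be higher in tud brains. Among protein-coding genes the median log2 fold change was -0.06 for those spanning under 5 kb, 0.22 for 5 to 20 kb and 0.40 for 20 kb or more, where 34.4% rose and passed. stau spans 7.9 kb, orb 20.2 kb and bru1 138.4 kb. With the trend on gene span removed from each library, a step chosen after seeing the data, stau rose by 0.56 (adjusted p = 0.017) and orb by 0.68 (adjusted p = 0.016) on the log2 scale, pgc fell by 1.80, and bru1 had a change of -0.15 (adjusted p = 0.32).

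The order of the members differed between tissues. In control ovaries it ran osk, pgc, exu, nos, bru1, orb, gcl, csul, vls and stau, from 584 to 16.0 FPKM, and only osk and pgc, and pgc and exu, overlapped with their neighbour. In tud ovaries pgc came first at 823 ± 153 FPKM (SD, n = 3) and was separate from osk at 572 ± 68.3 FPKM, and bru1 stood above nos with overlapping ranges. In control female brains stau (20.2 ± 3.24 FPKM) and gcl (18.4 ± 0.99 FPKM) led with overlapping ranges, and vls, bru1, pgc, orb and csul followed between 11.8 and 7.56 FPKM, each overlapping its neighbour. In tud female brains stau (33.5 ± 7.18 FPKM) was separate from all others, orb came next at 19.2 ± 5.45 FPKM with gcl at 19.0 ± 3.76 FPKM, and pgc was below csul at 2.82 ± 1.62 FPKM. exu, nos and osk were the lowest 3 in all 4 brain groups.

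Over the 12 brain libraries the genes whose log2(FPKM + 1) followed a member most closely were sought among all genes above the filter. These correlations are descriptions across libraries that also differ in genotype. For pgc they were T3dh (r = 0.98) and CG9498 (r = 0.98), for stau lncRNA:CR45957 (r = 0.99) and WASp (r = 0.98), and for orb CG6685 (r = 0.99) and Shaw (r = 0.98). For bru1 they were ps (r = 0.98) and cpo (r = 0.97), for gcl Ide (r = 0.99) and CG5877 (r = 0.98), and for vls Smn (r = 0.95) and CG15642 (r = 0.94). csul had mir-961 and snRNA:U4:25F (r = 0.85 for each), and exu Mec2 (r = 0.88) and imd (r = 0.86). csul was at 13.4 FPKM in tud male brain replicate 3 and at most 8.996 FPKM in the other brains. Its correlations may therefore rest largely on that 1 library. Between members, stau and orb followed each other most closely (r = 0.91, and 0.73 after the mean of each group was removed). pgc, which was called in the other direction by genotype, ran opposite to stau (r = -0.88, and -0.53 within groups). Within groups the strongest relation was that of gcl and vls (r = -0.87, and -0.80 over the 12 libraries).

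Over all genes tested, 14.2% rose and 10.8% fell in tud brains, and 2.54% rose and 1.55% fell in tud ovaries, so more calls in the brain were the rule. Gene span, with which changes in the brain rose, was not taken into account in the list counts below. Of 18 tested genes that act in transport, anchoring and translation of osk RNA, 6 rose and 1 fell in tud brains (median log2 fold change 0.41), and in the ovary none of 19 rose and 1 fell (median 0.00). The largest rises in the brain were those of the cold shock domain protein gene yps (0.97, SE 0.22, adjusted p = 0.018), the hnRNP gene sqd (0.92, SE 0.20, adjusted p = 0.016) and the RNA helicase gene me31B (0.89, SE 0.26, adjusted p = 0.033). sqd was at 67.7 to 93.2 FPKM in tud brains and 23.0 to 55.4 FPKM in control brains, without overlap. yps was at 43.1 to 108 FPKM in tud brains and 19.3 to 38.6 FPKM in control brains, also without overlap.

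The gene that fell was mago, which encodes a subunit of the exon junction complex needed for osk localisation. It was at 16.4 to 22.1 FPKM in tud female brains against 41.1 to 43.9 FPKM in control female brains, and at 19.1 to 23.3 FPKM in tud male brains against 27.1 to 53.9 FPKM in control male brains (log2 fold change -0.96, SE 0.16, adjusted p = 0.0080). In the ovary it was at 48.5 to 52.4 FPKM in tud flies and 84.2 to 85.1 FPKM in controls (log2 fold change -0.74, SE 0.05, adjusted p = 0.00068). mago lies 0.05 Mb from tud, and whether Df(2R)PurP133 removes it is not given in the sources used here. Its partners in the complex, tsu, btz and eIF4A3, did not pass in either tissue. In the brain their log2 fold changes were also negative. They were -0.43 for tsu (SE 0.19, adjusted p = 0.11), -0.32 for btz (SE 0.15, adjusted p = 0.14) and -0.28 for eIF4A3 (SE 0.10, adjusted p = 0.063). In the ovary they were between -0.01 and 0.01.

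Of 8 genes that regulate nos RNA or act with Nos, 5 rose in tud brains (median log2 fold change 0.49) and none of the 8 was called by limma in the ovary or had an unadjusted p under 0.05 there. smg, a repressor of nos RNA translation, rose by 0.75 (SE 0.21, adjusted p = 0.029), pum by 0.66 (SE 0.21, adjusted p = 0.044) and brat by 0.58 (SE 0.19, adjusted p = 0.048) on the log2 scale. Of 7 genes for the methylosome subunit icln, Sm proteins (SmB, SmD1, SmD3) and the SMN complex that loads them onto snRNA (Smn, Gem2, Gem3), Smn fell in the brain by 0.70 (SE 0.20, adjusted p = 0.031), none rose, and none of 7 passed in the ovary, where none was under an unadjusted p of 0.05. Of 8 tested further germ plasm and pole cell genes, aub, which encodes a Piwi family protein that binds Tud, rose by 0.81 in the brain (SE 0.21, adjusted p = 0.024). Its level there was 1.82 to 4.83 FPKM in tud flies and 0.39 to 2.10 FPKM in controls. In the ovary tud itself was the 1 gene of 9 that passed, with a fall of 2.44 (SE 0.11, adjusted p = 0.00012).

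**Figure D5:**
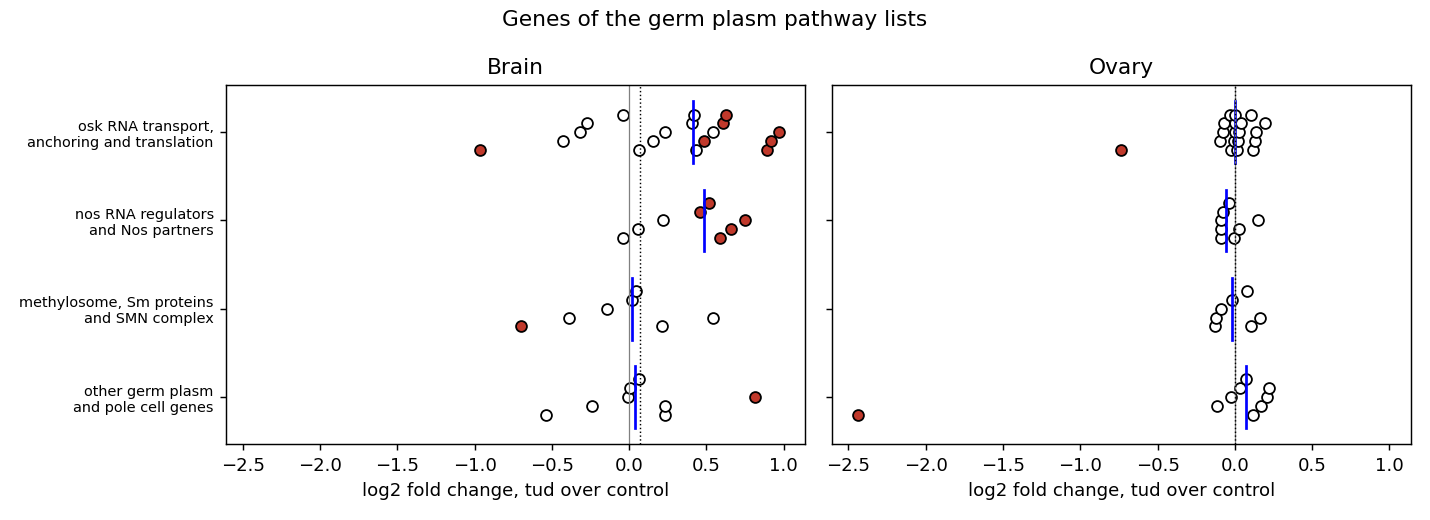
Log2 fold change (tud over control) of genes in 4 lists of the germ plasm pathway that exclude the 10 members, in brain and ovary, with 1 point per gene. Red points passed an adjusted p of 0.05, the vertical bars mark the median of each list and the dotted line the median of all genes tested. In the brain 6 genes of the osk list and 5 of the nos list are red to the right of 0, and in the ovary the red points are mago and tud, both left of 0.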

How the data were processed

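The authors prepared stranded, ribosome-depleted total RNA libraries, mapped the reads to dm6 with TopHat2 and deposited FPKM per gene; Cuffnorm 2.2.1 is named in the submitters' processing notes. Scaling between libraries and use of the strand in counting are not given in the sources used here. FPKM are not counts, and depth is known only from the steps between low values (an effective length 200 nt below the transcript length was assumed), with 97.0% to 99.0% of such values in other genes within 0.1 of a whole number. Gene positions came from Ensembl release 115. Values were compared as log2(FPKM + 1) with limma 3.58.1 in R 4.3.3 (trend, mean FPKM of at least 1, Benjamini-Hochberg adjusted p of 0.05 or less, two-sided); a log2 fold change understates the change of low genes. The brain fit held 12 libraries in 4 groups, the ovary fit 6, and the fit of both tissues 12 female libraries. Single genes were also compared by exact permutation of genotype. The paper reports 3 biological replicates per condition. The limma p-values set group differences against the spread between these libraries, pooled over the groups of a fit. The fits were tested on simulated data. The text names the 10 members, tud, up to 3 called genes each way from each list and the 2 closest genes by correlation; genes that overlap a member were added after values were seen. The members and lists were chosen with earlier results of these data known. vas, Imp, para and wupA were not analysed here, and cup, listed at 0 in most libraries including control ovaries, was not tested.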

Additional observations from a re-analysis of the deposited data

Results flagged for a closer look

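The genotype change of pgc differed between tissues. On the log2 scale it was 0.55 in the ovary and -1.49 in the female brain, and the difference of 2.04 passed the interaction test of limma (SE 0.38, adjusted p = 0.038). In these same values all 3 tud ovaries were above, and all 3 tud female brains below, every control of the same tissue. Groups of the ovary were separate for 24.7% of all genes tested there. The call was lost with a pseudocount of 0.1 (2.39, adjusted p = 0.073), with a filter at a mean FPKM of 5 (adjusted p = 0.052) and without any 1 of 9 libraries (adjusted p = 0.053 to 0.11). The part of T3dh, which overlaps pgc on the opposite strand and also fell in the brain, was not tested.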

How the results depend on the processing

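The calls of pgc, stau and orb in the brain and of bru1 in the ovary, and their directions, held under each other pseudocount, filter, scaling, moderation, weighting, block and sex term tried, and no called value changed sign. Of 80 log2 fold changes recomputed in 1594 alternatives, 22 that were not called changed sign in 67 of them. Leaving out 1 library gave 382 to 4168 genes called in the brain, 19 to 168 in female brains, 29 to 3381 in male brains, 2 to 7 for the difference between the sexes, 10 to 60 between control female and male brains, 157 to 292 in the ovary and 45 to 469 for the ovary minus female brain change. Members called were then 1 to 4 in the brain, 0 to 1 in female brains, 1 to 3 in male brains, 1 to 2 in the ovary and 0 to 2 for the ovary minus female brain change. The brain extremes of 382 and 4168 arose when replicate 1 of the tud males or of the control males was absent. With library weights, 2649 genes were called in female brains (main value 36), 72 in male brains (132), 12 between control sexes (30), 1684 in the ovary (338) and 3184 for the ovary minus female brain change (110); members called were then 5 in female brains, 3 in the ovary and 5 for the ovary minus female brain change. A pseudocount of 0.1 gave 78 genes in male brains and 67 for the ovary minus female brain change, and 0 members for that change. A filter at a mean FPKM of 5 gave 18 genes between control sexes, and 39 genes and 0 members for the ovary minus female brain change. No filter gave 76 genes in male brains, and quantile normalization 1 member, pgc, in female brains. Fitted alone, female brains gave 18 genes and male brains 31. Removal of the gene span trend gave 265 genes in male brains and 0 for the difference between the sexes, and in the whole brain 1233 higher and 1384 lower genes, against 1516 and 1150. The causes of these shifts were not tested.

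Whether the replicate numbers pair the samples was not settled. The correlations here are those of the values left after the mean of each group was removed, not of the expression levels themselves. Same-numbered brain libraries had correlations of -0.16 to 0.37, against -0.485 to 0.403 for differently numbered ones, and same-numbered ovary libraries of -0.11 to 0.03. With the replicate number as a block, 2766 genes and 4 members, vls added, were called in the brain, 195 genes and 1 member in the ovary, and 62 genes and 1 member for the ovary minus female brain change. Depth limits osk and nos in the brain, at most 27 fragments per library.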
